A study of Mus musculus with 12 samples.

Results

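The genes described here are 34 listed genes of protein folding, protein degradation and stress signalling in the endoplasmic reticulum (ER), found by symbol among 49492 gene entries of a count table from mouse left ventricle. All 34 had an entry. Of these, 33 passed a filter on low counts and were tested. Derl3, a pore component of ER-associated degradation, did not pass: it had 0 to 4 counts in every library, so its counts were at or near the floor of 3 counts. Polyadenylated RNA was sequenced in 12 libraries, 3 in each of 4 groups. Alox5ko_TAC and Alox5ko_NS are from Alox5 knockout ventricles with TAC and in the NS condition, and WT_TAC and WT_NS are the wild-type ventricles with and without TAC. TAC stands for transverse aortic constriction: surgical narrowing of the aorta, against which the left ventricle has to pump at raised pressure. NS is not explained in the labels and serves below only as a name for ventricles without TAC. Alox5 encodes 5-lipoxygenase, an enzyme of leukotriene synthesis, and the design text speaks of a deficiency in the heart. Strain, age, sex, time after the operation, and a promoter or Cre line that would limit the knockout to a cell type are not given in the sources used here.

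The ER folds secreted and membrane proteins with the help of chaperones, lectins and enzymes that form disulfide bonds. When unfolded proteins build up, the membrane sensors IRE1, PERK and ATF6 start the unfolded protein response: IRE1 lets the transcription factor XBP1 be made, ATF6 is cut to become a transcription factor, and PERK slows translation while favouring ATF4 and its target CHOP. XBP1 and ATF6 act on chaperone and degradation genes, and ATF4 and CHOP on genes of amino acid supply, redox balance and cell death. In heart muscle the ER is continuous with the calcium store that drives contraction, and the response is known to be engaged under pressure overload.

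Library totals ran from 20889431 to 27311196 counts. Levels are given as CPM, counts scaled to the library total and to TMM factors (0.945 to 1.04). Alox5 had 0.934 to 1.46 CPM in the 6 knockout libraries and 9.56 to 13.9 CPM in the 6 wild-type libraries, so each library matched its genotype label. The 5 cardiomyocyte markers summed to 158301.9 to 166916 CPM in Alox5ko_TAC, 137074.8 to 160729.1 CPM in Alox5ko_NS, 154448.6 to 159024.4 CPM in WT_TAC and 146942.8 to 161969.2 CPM in WT_NS, so the defining genes of heart muscle were abundant in every library. The 5 activated fibroblast markers summed to 139.8, 52.3 and 159.4 CPM in Alox5ko_TAC, 26.8 to 34.0 CPM in Alox5ko_NS, 256.3, 75.7 and 96.8 CPM in WT_TAC and 33.3 to 53.7 CPM in WT_NS, so Alox5ko_TAC 2 was low and WT_TAC 1 high among the libraries with TAC. Batch and date are not labelled. Nor is it stated that the libraries are from separate animals, so the p-values here reflect sample-to-sample spread, which may be technical.

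Per kilobase of gene length the genes spanned several orders of magnitude, with 4 chaperones at the top. In RPKM as deposited, averaged over the 12 libraries, the HSP90 of the ER, Hsp90b1, stood at 261.5, the lectin chaperone calreticulin, Calr, at 238, the HSP70 of the ER, Hspa5 (BiP), at 110.6 and the membrane lectin calnexin, Canx, at 101.1. These 4 genes took 70.5% of all counts of the 34 genes. The range over libraries did not overlap between Calr (198.9 to 275.2 RPKM) and Hspa5 (88.6 to 128.2 RPKM), nor between Canx (93.4 to 107.2 RPKM) and Pdia3 (30.7 to 44.7 RPKM), but the ranges of Hsp90b1 and Calr overlapped, as did those of Hspa5 and Canx. The sensors were far lower than these 4: Atf6 averaged 7.2 RPKM, the PERK gene Eif2ak3 1.22 RPKM and the IRE1 gene Ern1 1.12 RPKM. Some genes of the lumenal chaperone cycle averaged below Atf6 as well, namely Dnajc3 (6.24 RPKM), Hyou1 (5.33 RPKM) and Sdf2l1 (2.18 RPKM). At the bottom were Derl2 (0.755 RPKM), Edem1 (0.558 RPKM), Trib3 (0.31 RPKM), Asns (0.266 RPKM) and Derl3 (0.0501 RPKM). Further breaks without overlap between neighbours lay between Dnajb9 and Atf6, between Hyou1 and Sdf2l1, and between Ern1 and Derl2; all other neighbours overlapped. Most genes were steady across libraries. The highest library held 1.15 times the lowest for Derl1 and 1.16 times for Canx, against 13.4 times for Chac1, 3.95 times for Asns and 3.24 times for Trib3, whose counts were low.

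**Figure D1:**
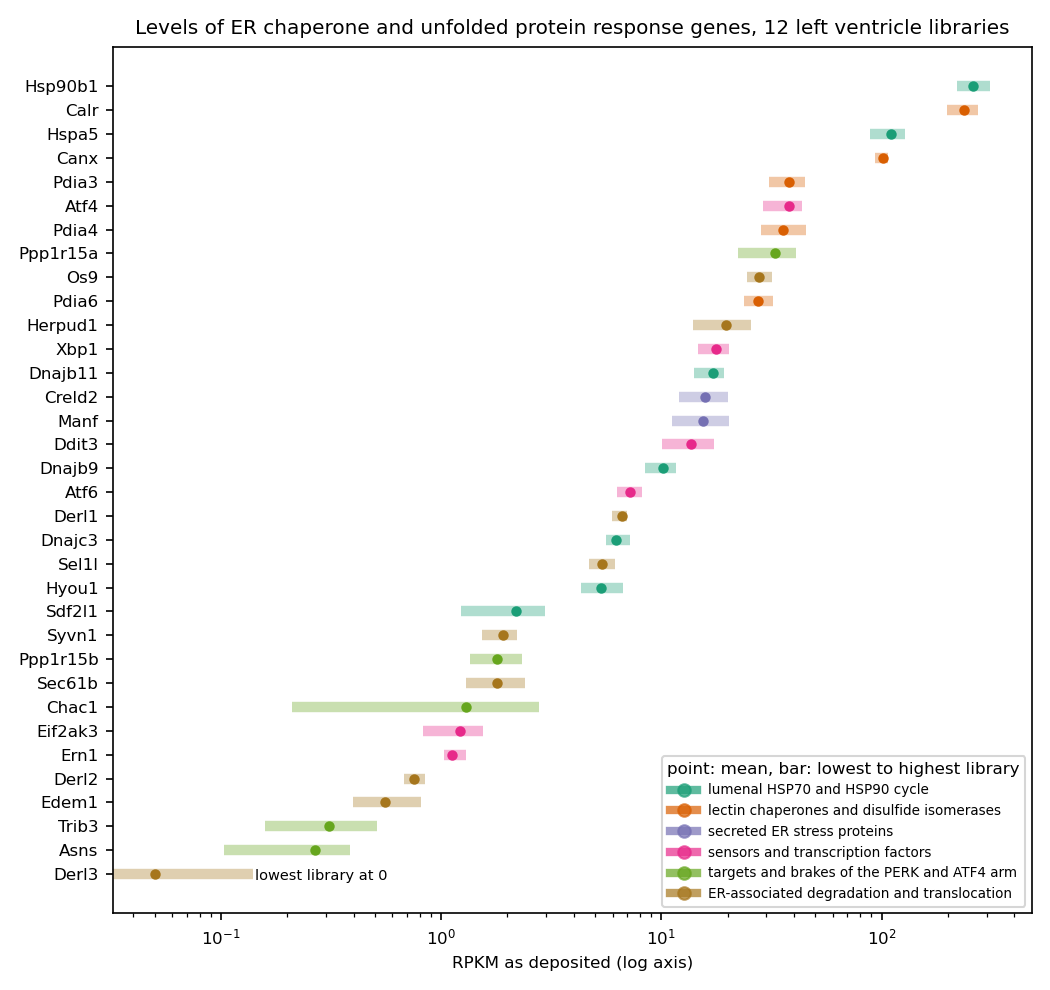
Level of each of the 34 genes in RPKM as deposited (log axis), with the mean over 12 libraries as a point and the lowest to highest library as a bar, coloured by role. Hsp90b1 (261.5) and Calr (238) lead, Derl3 (0.0501) is last with its lowest library at 0, and the bar of Chac1 (0.211 to 2.77) is the widest of the 33 other genes.

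Several of these promoters carry the ER stress element (ERSE), through which ATF6 together with the factor NF-Y is known to act on chaperone genes. The letters CCAAT, then any 9 bases, then CCACG, searched on both strands in the 250 bases before each RefSeq gene start (GRCm38.p6), were found in 9 of the 29 genes that had an entry, or 31%, against 35 of all 27018 genes searched, or 0.13%. The 9 are Hspa5, Hsp90b1, Dnajc3, Calr, Canx, Pdia6, Creld2, Syvn1 and Derl3. Windows are shown for the 6 of them whose levels the comparisons below turn on, with the 19-base match in capitals and 5 bases on each side, each read 5′ to 3′ on the strand where the element runs forward. Hsp90b1 holds a pair of matches.
Hspa5, chr2:34772020-34772048, plus strand: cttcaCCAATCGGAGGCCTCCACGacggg
Hsp90b1, chr10:86705633-86705661, minus strand: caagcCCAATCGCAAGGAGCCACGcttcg
Hsp90b1, chr10:86705528-86705556, plus strand: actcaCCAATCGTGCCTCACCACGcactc
Calr, chr8:84847070-84847098, plus strand: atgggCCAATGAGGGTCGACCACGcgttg
Pdia6, chr12:17266486-17266514, plus strand: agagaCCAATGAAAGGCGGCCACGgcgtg
Creld2, chr15:88819515-88819543, minus strand: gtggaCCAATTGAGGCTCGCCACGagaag
Syvn1, chr19:6046527-6046555, plus strand: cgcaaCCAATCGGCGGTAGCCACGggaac
The printed matches lie 26 to 212 bases before the RefSeq gene start, which for Hspa5 is inside the GENCODE span given below, from 44 to 26 for Syvn1 to 212 to 194 for the first of Hsp90b1. The related element ERSE-II (ATTGG, then any 1 base, then CCACG) was found in Herpud1 alone of the 29 (3.45%), against 0.037% of all genes. The XBP1-type core TGACGTGG was found in none of the 29, against 0.603% of all genes. The C/EBP-ATF element TGATGNAA, the type bound by ATF4, was found in Chac1, Asns and Herpud1 (10.3%), against 3.9% of all genes. A match describes the letters of these windows only and was not tested as a binding site.

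All fold changes below are log2 values, each with its standard error (SE). The adjusted p-values come from edgeR's quasi-likelihood test, with Benjamini-Hochberg adjustment over all 15542 genes tested, and called means an adjusted p under 0.05. With TAC against NS averaged over both genotypes, 2 of the 33 genes were called, Ddit3 and Eif2ak3, both higher, which is close to the share of all genes called (5.10%; 2.90% higher). No gene of the 33 was called in the 2 TAC comparisons within a genotype, where 1.34% of all genes were called in Alox5ko and 0.766% in WT. The same count of 0 held for Alox5ko_TAC against WT_TAC (0.109% of all genes called), Alox5ko_NS against WT_NS (0.0386%), Alox5ko against WT averaged over treatments (0.154%) and the difference between the TAC responses of the genotypes (0 of all genes). DESeq2 called 2 of the 33 in Alox5ko_TAC against Alox5ko_NS, Pdia4 and Calr, where it called 407 of all 15542 genes. It likewise called 0 of the 33 in the other comparisons where edgeR called 0. The groups of 3 libraries allow an exact permutation p of at least 0.1, so no single gene was tested that way.

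At an unadjusted p under 0.05 the counts were higher. In Alox5ko_TAC against Alox5ko_NS, 13 of the 33 genes were higher and 0 lower (14.5% of all genes in either direction). In WT_TAC against WT_NS, 1 was higher and 10 were lower (11.9% of all genes). Alox5ko_TAC against WT_TAC gave 13 higher and 0 lower (8.49%), Alox5ko_NS against WT_NS gave 1 higher and 11 lower (6.36%), and the difference between the TAC responses gave 13 higher and 0 lower (5.38%). TAC averaged over genotypes gave 4 higher and 3 lower, against 19.3% of all genes. The median log2 fold change of the 33 genes was 0.09 in Alox5ko with TAC and -0.14 in WT with TAC, against medians of 0.00 over all genes in both. It was 0.16 in Alox5ko_TAC against WT_TAC, -0.12 in Alox5ko_NS against WT_NS and 0.25 in the difference of the responses, where all genes had medians of -0.01, 0.00 and -0.01. Single libraries moved some of these medians by over 1.5 times. That of TAC in Alox5ko ran from 0.07 to 0.20, and was 0.20 without Alox5ko_NS 3, 0.16 without Alox5ko_TAC 1 and 0.15 without Alox5ko_TAC 2 or Alox5ko_TAC 3. That of TAC in WT ran from -0.19 to -0.09, and was -0.09 without WT_NS 2. That of Alox5ko_NS against WT_NS ran from -0.22 to -0.06, and was -0.22 without Alox5ko_NS 3, -0.06 without Alox5ko_NS 2 and -0.07 without WT_NS 2. These comparisons share libraries, so their values are given side by side and are not independent. They are also values of a list chosen with results of these data known, and they carry no test of the list. In bulk RNA, fewer cells of a type and less RNA per cell cannot be told apart.

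**Figure D2:**
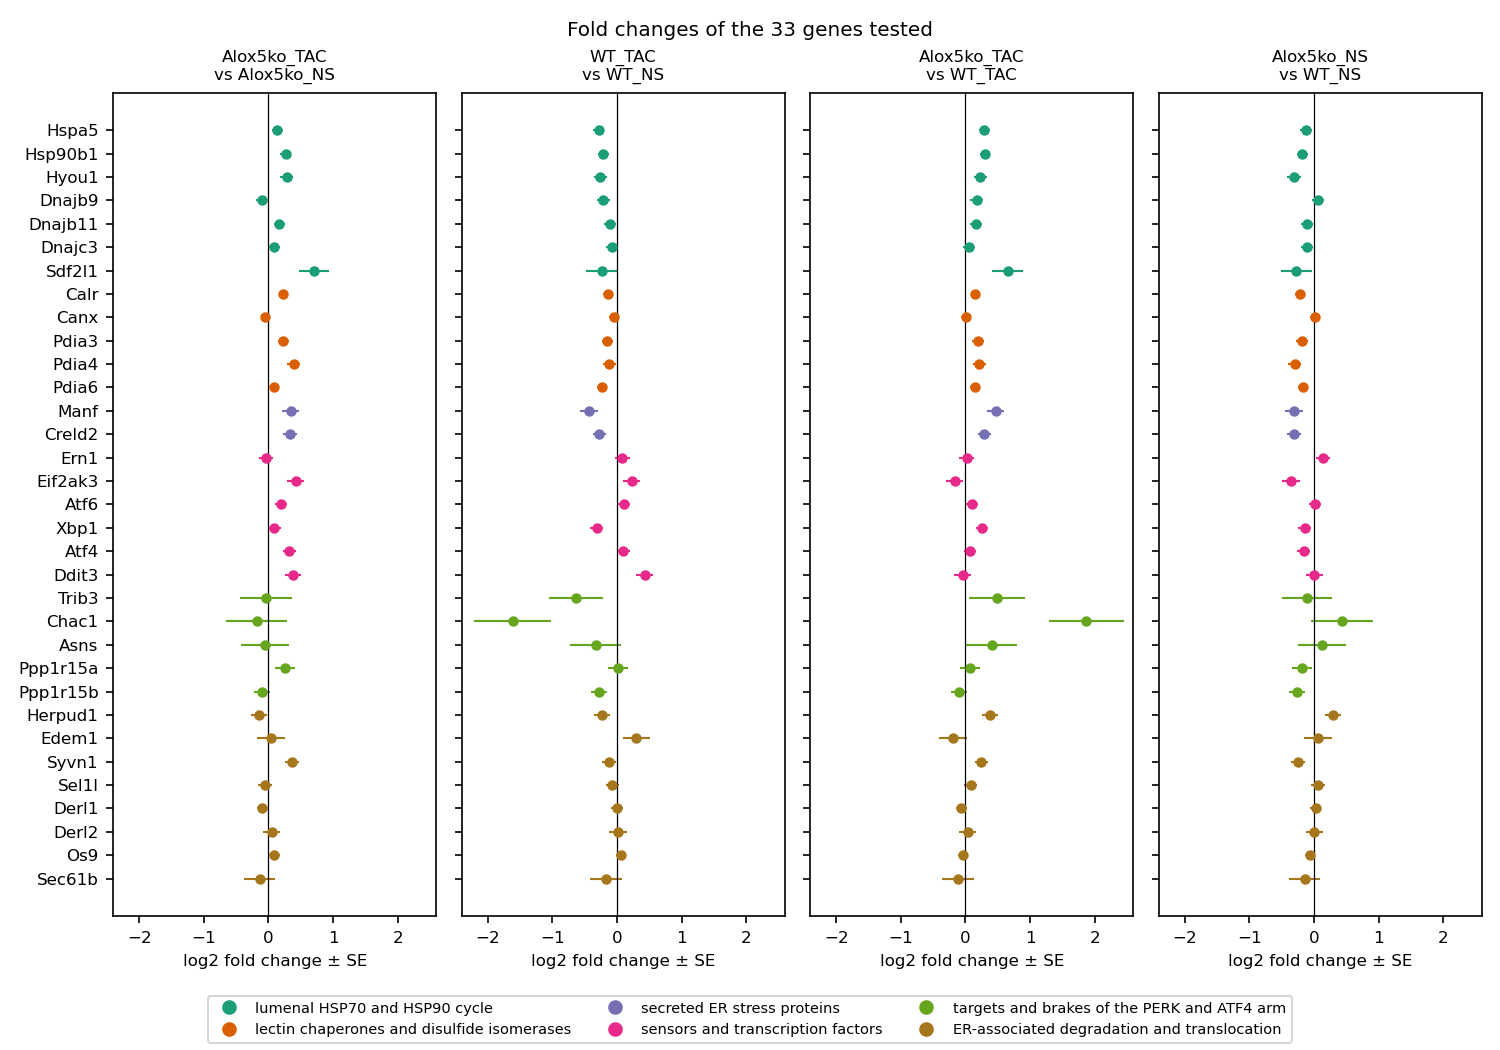
Log2 fold change (point) and SE (line) of the 33 tested genes in 4 comparisons, grouped and coloured by role, with TAC within Alox5ko and within WT on the left and Alox5ko against WT with TAC and without it on the right. Of the 14 chaperones, folding enzymes and secreted partners at the top, 12 lie right of 0 in Alox5ko_TAC against Alox5ko_NS, and all 14 lie left of 0 in WT_TAC against WT_NS.

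The 7 genes of the lumenal HSP70 and HSP90 cycle bind and release unfolded chains. Hspa5 (chromosome 2, 34771970 to 34777547, GRCm38), the central HSP70 and the partner of all the others, had 499.6, 516.8 and 495 CPM in Alox5ko_TAC, 468.1, 411.8 and 494.3 CPM in Alox5ko_NS, 367.5, 437.9 and 427.1 CPM in WT_TAC and 518.9, 524.1 and 453.2 CPM in WT_NS. WT_TAC lay below all other groups except for an overlap with Alox5ko_NS, and Alox5ko_TAC lay above Alox5ko_NS by a gap of under 1 CPM. Its fold change with TAC was 0.14 in Alox5ko (SE 0.0876, adjusted p = 0.503) and -0.28 in WT (SE 0.0877, adjusted p = 0.159), and neither passed. Averaged over genotypes it had a TAC value of -0.07 (SE 0.0620, adjusted p = 0.588). Between genotypes Hspa5 had 0.29 with TAC (SE 0.0877, adjusted p = 0.312) and -0.12 without it (SE 0.0876, adjusted p = 0.842).

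Hsp90b1 (chromosome 10, 86690209 to 86705509), which matures client proteins after Hspa5, had the same layout. It had 1114.4, 1215.9 and 1201.4 CPM in Alox5ko_TAC, 983.6, 908.6 and 1044.5 CPM in Alox5ko_NS, 875.4, 1005.4 and 982.1 CPM in WT_TAC and 1073.7, 1215.3 and 1030.5 CPM in WT_NS. The TAC libraries lay above their NS libraries in Alox5ko and below them in WT, without overlap in either. The fold change with TAC was 0.27 in Alox5ko (SE 0.0844, adjusted p = 0.129) and -0.21 in WT (SE 0.0844, adjusted p = 0.291), and with TAC the genotypes differed by 0.30 (SE 0.0844, adjusted p = 0.275); none passed. Genes that overlap Hsp90b1 in the annotation share 15.7% of its exon bases, and no source says whether counting used strand, so its counts may hold reads of those genes.

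Hyou1, which recharges Hspa5 with ATP, had 38.2, 45.2 and 41.5 CPM in Alox5ko_TAC, 36, 33.9 and 32.9 CPM in Alox5ko_NS, 33.9, 32 and 40.9 CPM in WT_TAC and 40.4, 47 and 39.9 CPM in WT_NS. Alox5ko_NS lay below WT_NS without overlap, a value of -0.31 (SE 0.101, adjusted p = 0.591), and the WT groups overlapped. Sdf2l1, a partner of the J protein Dnajb11, had 3.31, 3.15 and 3.21 CPM in Alox5ko_TAC, 1.98, 1.68 and 2.31 CPM in Alox5ko_NS, 2.21, 2.1 and 1.83 CPM in WT_TAC and 2.77, 3.07 and 1.35 CPM in WT_NS. The 3 Alox5ko_TAC libraries were above the libraries of all other groups, on 67 to 78 counts each, and the value against WT_TAC was 0.65 (SE 0.236, adjusted p = 0.416). The J proteins hand clients to Hspa5. Dnajb9, the J protein that also restrains IRE1, had 18.3, 20.5 and 18.8 CPM in Alox5ko_TAC, 19.7, 21.9 and 19.8 CPM in Alox5ko_NS, 15.5, 18.1 and 17.4 CPM in WT_TAC and 19.4, 21 and 18.7 CPM in WT_NS. Its TAC value averaged over genotypes was -0.15 (SE 0.0675, adjusted p = 0.22), and it was the 1 gene of the 7 with a negative value in both genotypes. Its genotype value averaged over treatments was 0.12 (SE 0.0675, adjusted p = 0.604). Dnajb11 and Dnajc3 ranged over 46.1 to 61.1 CPM and 29.7 to 36.4 CPM, with groups that overlapped in both TAC comparisons.

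The 5 lectin chaperones and disulfide isomerases handle glycoproteins. Calr, the soluble lectin that also buffers calcium, had 726.4, 729.1 and 743.1 CPM in Alox5ko_TAC, 652.8, 583.6 and 632.3 CPM in Alox5ko_NS, 648.1, 659.3 and 665.8 CPM in WT_TAC and 768.2, 743.8 and 669 CPM in WT_NS. The TAC and NS libraries were separate in both genotypes, in opposite directions, though the highest WT_TAC library and the lowest WT_NS library were about 3 CPM apart. With TAC its value was 0.23 in Alox5ko (SE 0.074, adjusted p = 0.128) and -0.14 in WT (SE 0.0739, adjusted p = 0.466), and without TAC the genotypes differed by -0.22 (SE 0.0739, adjusted p = 0.591). DESeq2 gave the Alox5ko value an adjusted p = 0.0497.

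Pdia4, a disulfide isomerase, came nearest to a call within a genotype. It had 88, 91.2 and 108.3 CPM in Alox5ko_TAC, 75.6, 71 and 72.2 CPM in Alox5ko_NS, 84.5, 82 and 81.2 CPM in WT_TAC and 84.8, 105.2 and 78.4 CPM in WT_NS. Every Alox5ko_NS library lay below every library of the other groups. Its TAC value in Alox5ko was 0.39 (SE 0.0986, adjusted p = 0.0539), and its genotype value without TAC was -0.29 (SE 0.0986, adjusted p = 0.591). The Alox5ko value passed without Alox5ko_TAC 2 (adjusted p = 0.0434), with library totals in place of TMM factors (adjusted p = 0.0418) and by DESeq2 (adjusted p = 0.0192). Pdia4 lies on chromosome 6, as do Eif2ak3, Edem1 and Asns, at 68.6, 45.6, 7.58 and 109 Mb from Alox5.

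Pdia6, another isomerase, had 106.2, 107.3 and 101.9 CPM in Alox5ko_TAC, 101.5, 90.7 and 105.4 CPM in Alox5ko_NS, 94.4, 91.2 and 99.5 CPM in WT_TAC and 116.5, 115.9 and 102.5 CPM in WT_NS. The WT groups did not overlap and the Alox5ko groups did, and its value with TAC in WT was -0.23 (SE 0.079, adjusted p = 0.199). Pdia3, the isomerase that works on the clients of both lectins, ranged from 98.3 to 135.7 CPM, and its Alox5ko groups did not overlap. Canx, the membrane lectin, was the flattest of the chaperones. It had values between -0.04 and 0.01 in all 4 comparisons between pairs of groups, with SE 0.0738, and its sign in Alox5ko_TAC against WT_TAC turned with library totals in place of TMM factors.

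Manf and Creld2 encode small secreted proteins of ER stress, and Manf also binds Hspa5. Manf had 61.6, 62.4 and 63 CPM in Alox5ko_TAC, 49.8, 40.5 and 57.3 CPM in Alox5ko_NS, 38.6, 46.7 and 50.1 CPM in WT_TAC and 65.5, 68.7 and 48.8 CPM in WT_NS. The Alox5ko_TAC libraries were close together and above both Alox5ko_NS and WT_TAC, and 1 WT_NS library lay within WT_TAC. The values were -0.43 with TAC in WT (SE 0.137, adjusted p = 0.18) and 0.47 between genotypes with TAC (SE 0.137, adjusted p = 0.317). Overlapping genes share 9.25% of the exon bases of Manf.

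Creld2 had 24.9, 22.2 and 24.6 CPM in Alox5ko_TAC, 18.7, 16.7 and 21.8 CPM in Alox5ko_NS, 19.7, 19.7 and 19.1 CPM in WT_TAC and 22, 26.5 and 21.9 CPM in WT_NS. Alox5ko_TAC and WT_NS were the high groups, and each was separate from Alox5ko_NS and from WT_TAC. The separation from Alox5ko_NS was narrow: its highest library had 21.8 CPM, against lowest libraries of 22.2 CPM in Alox5ko_TAC and 21.9 CPM in WT_NS. Without TAC its genotype value was -0.31 (SE 0.107, adjusted p = 0.633).

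The 14 chaperones, folding enzymes and secreted partners were also summed, as a description without a test. Their summed level, scaled with TMM, was 3339.2, 3508.9 and 3521.1 CPM in Alox5ko_TAC, 3100.3, 2832.3 and 3173 CPM in Alox5ko_NS, 2801.3, 3063.5 and 3087.6 CPM in WT_TAC and 3399.9, 3586.6 and 3148.6 CPM in WT_NS. Each TAC group was separate from its NS group, above it in Alox5ko and below it in WT, while Alox5ko_NS and WT_NS overlapped. With TAC, 12 of the 14 values were positive in Alox5ko (median 0.23) and all 14 were negative in WT (median -0.21). Of all genes tested, 49.3% were positive in Alox5ko and 50.9% in WT. The values of Alox5ko_TAC against WT_TAC were positive for 14 of 14 (13 with library totals in place of TMM factors, where Canx turned), with a median of 0.20. Those of Alox5ko_NS against WT_NS were positive for 2 of 14 (0 with library totals), with a median of -0.18. Of all genes tested, 48.5% were positive between the genotypes with TAC and 50.4% without it.

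Leaving out each library in turn kept these medians on their side of 0. They ran from 0.17 to 0.26 for TAC in Alox5ko, from -0.25 to -0.13 for TAC in WT (-0.13 without WT_NS 2), from 0.17 to 0.25 for the genotypes with TAC and from -0.24 to -0.12 without it. Some signs of single genes turned. Without WT_TAC 1, 13 of the 14 were negative with TAC in WT and 13 were positive in Alox5ko_TAC against WT_TAC. Without Alox5ko_TAC 3, 12 were positive in Alox5ko_TAC against WT_TAC. Alox5ko_NS 2 held the lowest value of 10 of the 33 genes and WT_TAC 1 that of 7, while WT_NS 2 held the highest value of 7 and Alox5ko_TAC 3 that of 6. Other measures differed between these groups too, not all of them in the layout of the chaperones. The share of mitochondrial counts was 14.6% to 16.8% in Alox5ko_TAC and 18.2% to 21.4% in Alox5ko_NS, without overlap, and 15.7% to 17.3% in WT_TAC and 16.5% to 18.1% in WT_NS. The 5 endothelial markers summed to 383.8 to 432.2 CPM in Alox5ko_TAC, 298.4 to 377.6 CPM in Alox5ko_NS, 415.2 to 494.9 CPM in WT_TAC and 406.8 to 423.5 CPM in WT_NS. Of these 5, all had a positive value with TAC in Alox5ko and 3 in WT, and all had a negative value in Alox5ko_NS against WT_NS, 4 of them without overlap. The 5 macrophage markers summed to 48.2 to 59.5 CPM in Alox5ko_TAC, 45.5 to 49.8 CPM in Alox5ko_NS, 41.4 to 59.8 CPM in WT_TAC and 51.8 to 55.7 CPM in WT_NS. Of these 5, all had a positive value with TAC in Alox5ko and 0 in WT, and all had a positive value in the difference of the responses (median 0.30). The 5 smooth muscle and pericyte markers summed to 564 to 663.8 CPM in Alox5ko_TAC, 526.4 to 654.9 CPM in Alox5ko_NS, 658.7 to 846.4 CPM in WT_TAC and 752.8 to 780.6 CPM in WT_NS, and all 5 had a negative value in Alox5ko_NS against WT_NS, 4 of them without overlap. In Alox5ko_TAC against WT_TAC, where the chaperone values were positive, all 5 smooth muscle and pericyte markers were negative (median -0.4). There, 4 of the 5 endothelial markers were negative (median -0.09) and all 5 macrophage markers positive (median 0.16). The activated fibroblast markers, of which 4 of 5 were tested and Cthrc1 had 0 to 6 counts, had positive TAC values in both genotypes. The 7 markers of B and plasma cells, which are rich in ER chaperones, summed to 2.42 to 3.84 CPM in Alox5ko_TAC, 1.82 to 2.72 CPM in Alox5ko_NS, 2.16 to 4.12 CPM in WT_TAC and 2.47 to 3.23 CPM in WT_NS, with Jchain and Ms4a1 at 0 to 3 counts. The 4 atrial myocyte markers averaged 34.2 CPM in Alox5ko_TAC, 12.5 in Alox5ko_NS, 27.8 in WT_TAC and 39.6 in WT_NS. Their libraries ran from 1.35 to 92.1 CPM, and all groups overlapped. The 4 adipocyte markers averaged 1.18, 0.469, 0.317 and 1.35 CPM in that order, on few counts. Both thus averaged highest in the groups where the chaperones were high. In the difference of the responses, 3 of 3 tested atrial markers and 0 of 3 erythroid markers were positive. The part of the mitochondrial share and of these cell types in the chaperone values was not tested.

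**Figure D3:**
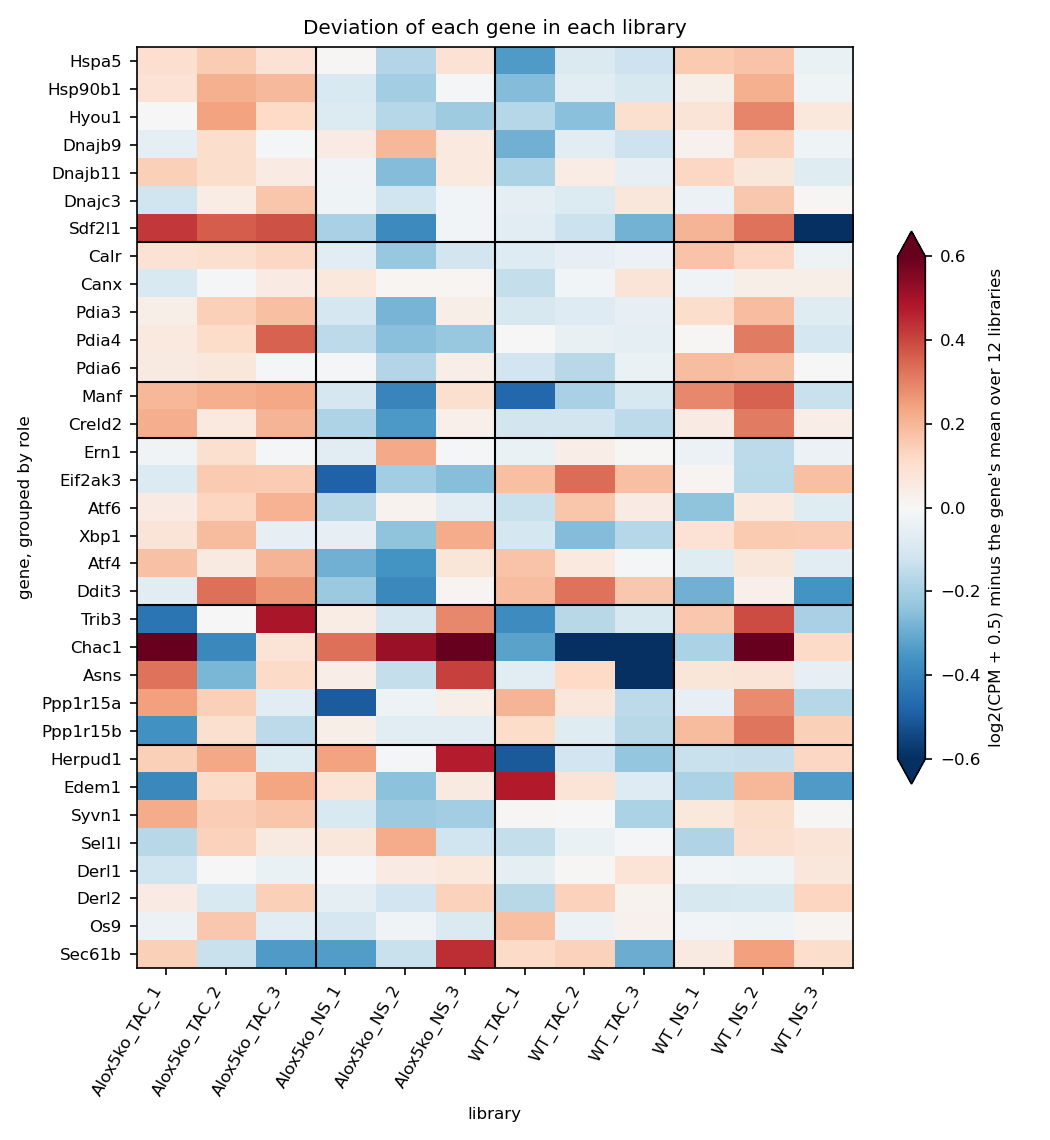
Deviation of each of the 33 tested genes in each of the 12 libraries from its mean over all libraries, as log2(CPM + 0.5), with red above and blue below the mean and genes grouped by role (horizontal lines). In the upper blocks the Alox5ko_TAC columns, WT_NS 1 and WT_NS 2 are mostly red. The WT_TAC columns, Alox5ko_NS 1 and Alox5ko_NS 2 are mostly blue there, and Alox5ko_NS 3 and WT_NS 3 are mixed.

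The difference between the TAC response of Alox5ko and that of WT was tested directly, as the interaction in the same fit. It called 0 of the 33 genes and 0 of all 15542 genes by edgeR, while DESeq2 called 0 of the 33 and 1 of all genes. The values with the smallest p were 0.48 for Hsp90b1 (SE 0.119), 0.60 for Creld2 (SE 0.151) and 0.78 for Manf (SE 0.193), each with an adjusted p = 0.543. Hyou1 had 0.53 (SE 0.143, adjusted p = 0.589), Pdia4 0.51 (SE 0.139, adjusted p = 0.623), Calr 0.38 (SE 0.105, adjusted p = 0.623) and Hspa5 0.42 (SE 0.124, adjusted p = 0.629). The value was positive for 28 of the 33 genes and for 13 of the 14 chaperones. With no filter on low counts (28070 genes), the spread of most genes was pooled. In that fit 83 of all genes were called in this difference, and 5 of the 33. These 5 were Hsp90b1, Creld2, Manf, Hyou1 and Pdia4, all with positive values. The sign of TAC itself was positive in Alox5ko and negative in WT for 14 genes, negative in both for 9, positive in both for 8, and negative in Alox5ko with positive in WT for 2. With library totals in place of TMM factors, the sign turned for Ern1 and Trib3 in Alox5ko and for Ppp1r15a, Derl1 and Derl2 in WT.

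In 5 of the 33 genes, Hspa5, Hsp90b1, Calr, Creld2 and Syvn1, the TAC libraries were separate from the NS libraries in both genotypes and in opposite directions, higher in Alox5ko and lower in WT. Of all 15542 genes, 70 (0.450%) separated in opposite directions, 35 of them in this direction. Counted within each genotype, 12 of the 33 genes were higher without overlap and 0 lower in Alox5ko_TAC against Alox5ko_NS, where 8.98% of all genes were higher and 9.02% lower. In WT_TAC against WT_NS, 2 were higher and 10 lower without overlap, where 10.1% of all genes were higher and 8.81% lower. Alox5ko_TAC against WT_TAC had 14 higher and 1 lower (5.77% and 6.51% of all genes), and Alox5ko_NS against WT_NS had 0 higher and 7 lower (6.14% and 7.45%).

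Of the 8 tested genes with an ERSE, 7 had a positive value with TAC in Alox5ko (median 0.19) and 0 in WT (median -0.18). Of the 20 genes with a promoter entry and no ERSE, 12 were positive in Alox5ko (median 0.07) and 8 in WT (median -0.11). An ERSE was also held by 26 other genes, of which 9 were tested: 7 of these were positive with TAC in Alox5ko (median 0.09), 4 in WT (median -0.02) and 8 in the difference of the responses (median 0.15). In that difference, 7 of the 8 listed genes with an ERSE were positive (median 0.40), and 17 of the 20 without (median 0.21). Except for Syvn1, the tested listed genes with an ERSE are all among the chaperones and partners summed above, so element and role overlap. The difference between these groups of genes was not tested.

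The 6 sensors and transcription factors had another layout: 5 had a positive TAC value in Alox5ko and 5 in WT, with Ern1 negative in Alox5ko and Xbp1 negative in WT. The 2 called genes are both here. Ddit3, which encodes CHOP, the transcription factor downstream of PERK and ATF4 (chromosome 10, 127290829 to 127293753), had 22.2, 29.3 and 28 CPM in Alox5ko_TAC, 19.8, 17.6 and 23.5 CPM in Alox5ko_NS, 26.4, 29.2 and 26 CPM in WT_TAC and 18.9, 23.7 and 18 CPM in WT_NS. All TAC libraries but Alox5ko_TAC 1 lay above all NS libraries. Averaged over genotypes Ddit3 rose by 0.41 with TAC (SE 0.0903, adjusted p = 0.0127), and it stayed called without each of the 12 libraries in turn, with values of 0.36 to 0.47 and adjusted p-values of 0.00484 to 0.045. Within a genotype its values were 0.38 in Alox5ko (SE 0.128, adjusted p = 0.15) and 0.43 in WT (SE 0.128, adjusted p = 0.137). In the deposited annotation the span of Ddit3 is longer, 127290774 to 127296288. Overlapping genes on the other strand share 4.73% of the exon bases there.

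Eif2ak3, the PERK gene (chromosome 6, 70844515 to 70905245), had 6.83, 8.18 and 8.13 CPM in Alox5ko_TAC, 5.05, 6.23 and 6.01 CPM in Alox5ko_NS, 8.31, 9.31 and 8.32 CPM in WT_TAC and 7.36, 6.44 and 8.3 CPM in WT_NS. TAC libraries lay above NS libraries within each genotype, narrowly in WT, and Alox5ko libraries lay below WT libraries within each treatment. Averaged over genotypes Eif2ak3 rose by 0.33 with TAC (SE 0.094, adjusted p = 0.0495), just past the threshold. That call was lost without any 1 of 11 of the 12 libraries (adjusted p = 0.052 to 0.127) and held without Alox5ko_TAC 1 alone (adjusted p = 0.0403). It was also lost with DESeq2's size factors (adjusted p = 0.0501) and by DESeq2 (adjusted p = 0.0522). The value was 0.42 with TAC in Alox5ko (SE 0.134, adjusted p = 0.131), -0.36 between genotypes without TAC (SE 0.134, adjusted p = 0.686) and -0.26 between genotypes averaged over treatments (SE 0.0939, adjusted p = 0.349). Counting a gene only where its groups are separate in the same direction within each genotype or each treatment, it was the 1 gene of the 33 in each of the averaged comparisons, where 2.32% of all genes were higher with TAC and 0.663% lower in Alox5ko. Gm43292 on the other strand shares 8.05% of its exon bases.

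Atf4, the transcription factor that PERK signalling favours, had 73.9, 67.8 and 75.3 CPM in Alox5ko_TAC, 53.5, 50.9 and 68.7 CPM in Alox5ko_NS, 73.7, 68 and 64.8 CPM in WT_TAC and 62.1, 68.5 and 62.6 CPM in WT_NS. Alox5ko_NS 3 lay apart from its group, within Alox5ko_TAC. The TAC value was 0.33 in Alox5ko (SE 0.0987, adjusted p = 0.109) and 0.21 averaged over genotypes (SE 0.0698, adjusted p = 0.0876). Without Alox5ko_NS 3 these became 0.47 (adjusted p = 0.0201) and 0.28 (adjusted p = 0.00714), so 1 library decides both. Atf4 is regulated largely in translation, which RNA counts do not measure.

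Atf6, the sensor that is itself a transcription factor, had 68.6, 72.4 and 76.7 CPM in Alox5ko_TAC, 59, 67.3 and 63.3 CPM in Alox5ko_NS, 60.4, 74.4 and 68.6 CPM in WT_TAC and 56, 69 and 62.9 CPM in WT_NS, with a TAC value of 0.16 averaged over genotypes (SE 0.0656, adjusted p = 0.189). The Alox5ko groups were separate and the WT groups overlapped. Xbp1, the target of IRE1, was the exception in its class and lay with the chaperones. It had 60.3, 65.1 and 55.2 CPM in Alox5ko_TAC, 55.1, 48.2 and 66.6 CPM in Alox5ko_NS, 53, 47.5 and 50.7 CPM in WT_TAC and 60.6, 63.6 and 63.5 CPM in WT_NS. WT_TAC was below WT_NS and below Alox5ko_TAC without overlap, and the Alox5ko groups overlapped widely. The TAC value in WT was -0.31 (SE 0.1, adjusted p = 0.168), and it passed in a fit of the WT libraries alone (adjusted p = 0.043). Gene counts do not separate spliced from unspliced Xbp1. Ern1, which splices it, ranged from 8.12 to 10.7 CPM and had values of -0.04 in Alox5ko and 0.08 in WT with TAC.

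**Figure D4:**
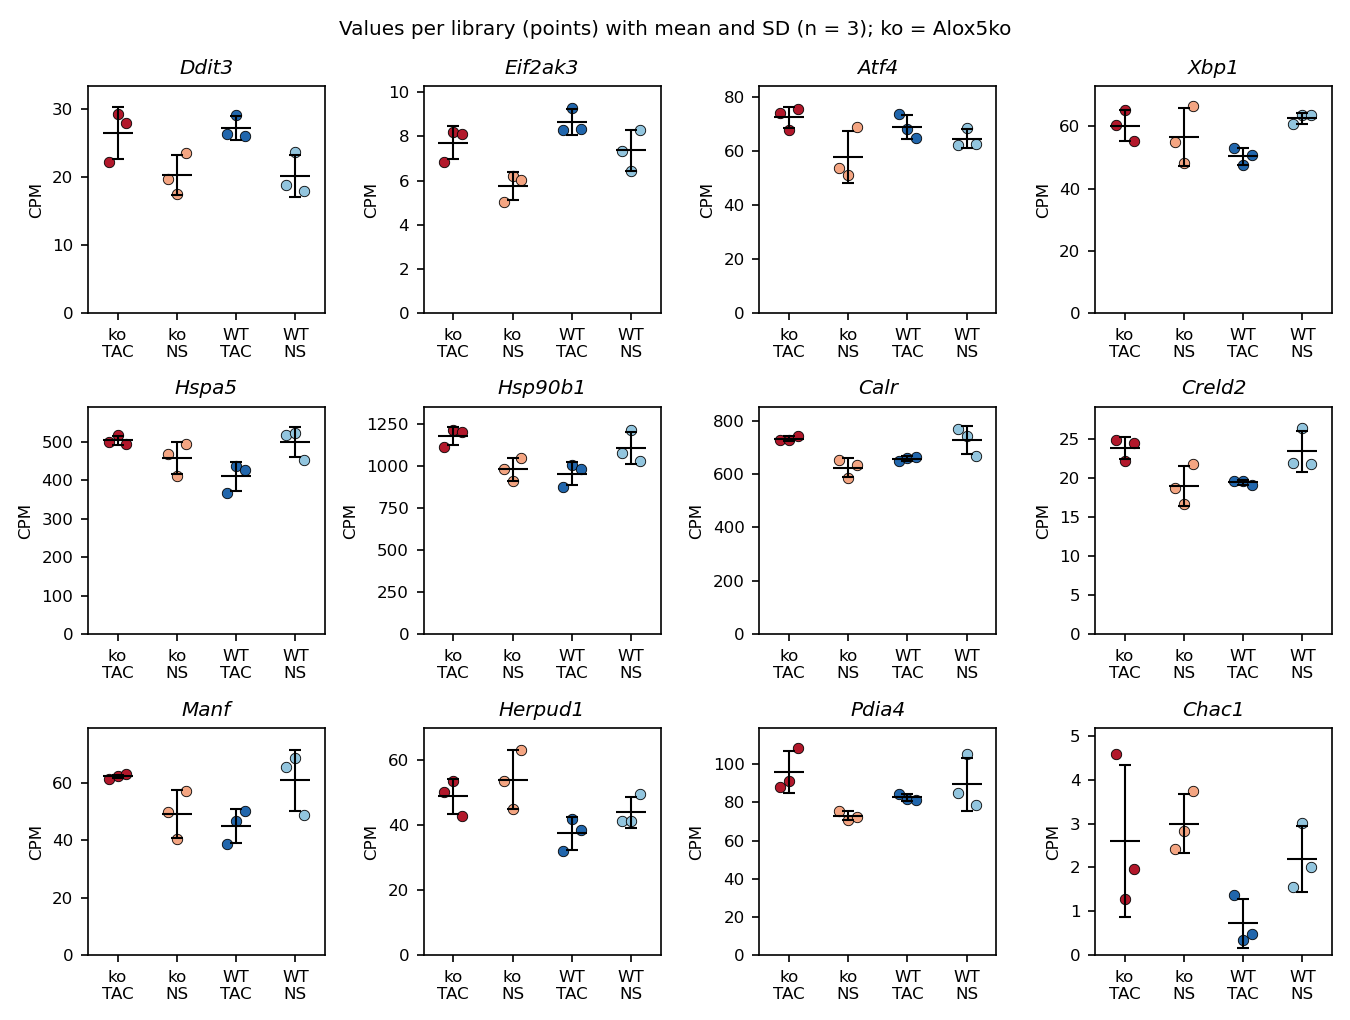
CPM in each library (points) with the mean and SD of 3 libraries (bars) for 12 genes, in the order Alox5ko_TAC, Alox5ko_NS, WT_TAC and WT_NS, with axes starting at 0. Ddit3 and Eif2ak3 are higher with TAC in both genotypes, while Hspa5, Hsp90b1, Calr, Creld2 and Manf average highest in Alox5ko_TAC and WT_NS.

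Of the 5 targets and brakes of the PERK and ATF4 arm, Chac1, Trib3 and Asns had low counts. None of the 5 was called in any comparison. Chac1, an enzyme that breaks down glutathione and a target of ATF4, had 4.58, 1.28 and 1.96 CPM in Alox5ko_TAC, 2.43, 2.84 and 3.74 CPM in Alox5ko_NS, 1.36, 0.343 and 0.47 CPM in WT_TAC and 1.55, 3.02 and 2.02 CPM in WT_NS. WT_TAC was the low group, on 29, 8 and 10 counts, and Alox5ko_TAC 1 stood above the other libraries of its group, on 108 counts against 28 and 41. The values were 1.87 for Alox5ko_TAC against WT_TAC (SE 0.583, adjusted p = 0.372), 1.15 for the genotypes averaged over treatments (SE 0.379, adjusted p = 0.349) and -0.90 for TAC averaged over genotypes (SE 0.381, adjusted p = 0.231). Without Alox5ko_TAC 1 the first became 1.17 and the third -1.25, with an adjusted p = 0.0288 for the third.

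Trib3, a pseudokinase that restrains ATF4, had 8 to 23 counts in each library, and Asns, asparagine synthetase, had 6 to 25. Ppp1r15a and Ppp1r15b encode the subunits that let translation resume, the first induced by stress and the second constitutive. Ppp1r15a ranged from 67.1 to 115.9 CPM with overlap in all comparisons between pairs of groups. Ppp1r15b had 7.64, 10.7 and 8.9 CPM in Alox5ko_TAC, 10.2, 9.48 and 9.48 CPM in Alox5ko_NS, 10.8, 9.43 and 8.83 CPM in WT_TAC and 11.5, 12.6 and 11 CPM in WT_NS. WT_NS was above all other groups, and the genotype value averaged over treatments was -0.18 (SE 0.0883, adjusted p = 0.525). Gm26616 on the other strand shares 11.4% of its exon bases.

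Of the 8 tested genes of ER-associated degradation and translocation, 4 had a positive TAC value in Alox5ko and 4 in WT, with medians of 0.00 and -0.03. Syvn1, the ubiquitin ligase of the pathway, had 10.6, 10.1 and 10.2 CPM in Alox5ko_TAC, 8.45, 7.68 and 7.74 CPM in Alox5ko_NS, 9.06, 9.05 and 7.85 CPM in WT_TAC and 9.45, 9.77 and 9.07 CPM in WT_NS. Alox5ko_TAC was the highest group, and the WT groups were just separate in the opposite direction. Its TAC value in Alox5ko was 0.37 (SE 0.107, adjusted p = 0.0968), and its difference between the genotypes' responses was 0.49 (SE 0.151, adjusted p = 0.636).

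Herpud1, the membrane protein that organises this ligase complex, differed in another way, by genotype. It had 50, 53.3 and 42.8 CPM in Alox5ko_TAC, 53.6, 45 and 63 CPM in Alox5ko_NS, 31.8, 41.8 and 38.5 CPM in WT_TAC and 41.2, 41.1 and 49.4 CPM in WT_NS. The genotypes were separate with TAC and overlapped without it. The genotype value was 0.38 with TAC (SE 0.128, adjusted p = 0.371), 0.29 without it (SE 0.127, adjusted p = 0.738) and 0.34 averaged over treatments (SE 0.0902, adjusted p = 0.193), the smallest p of the 33 genes in the averaged comparison. There, 3 of the 33 genes had an unadjusted p under 0.05, against 9.77% of all genes. The ligase adaptor Sel1l, the lectin Os9, the pore proteins Derl1 and Derl2, the mannosidase-like Edem1 and the translocon subunit Sec61b had TAC values of -0.14 to 0.09 in Alox5ko and -0.17 to 0.30 in WT, all with groups that overlapped.

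A further 7 lists covered other genes of the ER, of transport to the Golgi, of the integrated stress response and, outside the ER, of heat shock. In the averaged TAC comparison, where 5.10% of all genes were called, 5 of the 173 genes tested were called. Among 34 tested genes of the integrated stress response and ATF4 targets, Cebpb, a transcription factor, fell by 0.49 with TAC (SE 0.114, adjusted p = 0.0159) and Slc7a1, a transporter of cationic amino acids, fell by 0.79 (SE 0.19, adjusted p = 0.0499). Svip, an inhibitor of ER-associated degradation and 1 of 22 in that list, fell by 0.25 (SE 0.0709, adjusted p = 0.043). Of 20 genes of the heat shock list, which is cytosolic but for members such as Hspd1, the small heat shock gene Cryab rose by 0.27 (SE 0.0652, adjusted p = 0.0213), and Hspd1, the chaperonin of mitochondria, fell by 0.27 (SE 0.0617, adjusted p = 0.0163). The other 4 lists held no gene called by edgeR. Of 29 further ER folding enzymes, the isomerase Pdia5 had 0.33 (adjusted p = 0.127) and Uggt2 -0.38 (adjusted p = 0.163). Of 29 genes of the translocon and glycosylation, Sec11a of the signal peptidase had -0.20 (adjusted p = 0.091) and Magt1 -0.21 (adjusted p = 0.119). Of 23 genes of ER to Golgi transport, the cargo lectin Lman1 had -0.18 (adjusted p = 0.0584) and the coat gene Sec23a -0.16 (adjusted p = 0.234). Of 16 further sensors and proteases, Tmbim6 had -0.16 (adjusted p = 0.0849) and Mbtps1, the protease that cuts ATF6, -0.14 (adjusted p = 0.192).

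With TAC, 14 of the 29 further folding enzymes were positive in Alox5ko (median 0.00) and 14 in WT (median -0.03). Their difference between the genotypes' responses had a median of 0.01, and Serpinh1, the collagen chaperone, had 0.51 (SE 0.143, adjusted p = 0.623) while Uggt2, a folding sensor of glycoproteins, had -0.94 (SE 0.298, adjusted p = 0.646). The medians of the same difference were -0.02 for the translocon, 0.04 for ER to Golgi transport, 0.03 for further degradation genes and 0.03 for further sensors. Of the 34 genes of the integrated stress response, 25 were positive with TAC in Alox5ko (median 0.06), 16 in WT (median -0.02) and 26 in the difference of the responses (median 0.12). Of the cytosolic heat shock genes, 17 of 20 were positive with TAC in Alox5ko (median 0.18), 6 of 20 in WT (median -0.09), and 20 of 20 in the difference of the responses (median 0.22). Hsph1, a partner of cytosolic HSP70, had the smallest p of that list in the difference, 0.75 (SE 0.252, adjusted p = 0.821). No test compared these lists with each other.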

How the data were processed

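Left ventricle RNA of 12 libraries in 4 groups was sequenced as read pairs from directional libraries, per the labels' protocols. The submitters' processing notes name HISAT2, DESeq2 and the builds mm10 and GRCh38, with no versions; the counting program, annotation release and strand setting are not given in the sources used here. The authors deposited raw counts per gene symbol and RPKM values; all 254619 RPKM values above 0 that could be matched were equal within 0.1% to values recomputed from the counts. Spreadsheet dates stood in place of 26 symbols, and no value of theirs is given.

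The tests used edgeR 4.0.16 (limma 3.58.1, R 4.3.3): 15542 genes passed filterByExpr by group with a count minimum of 10 and a total minimum of 15, libraries were scaled with TMM, and a robust quasi-likelihood fit with 1 coefficient per group left 8 residual degrees of freedom. P-values were adjusted by Benjamini-Hochberg over all genes tested in each of 7 comparisons. CPM in the text use TMM factors; mitochondrial shares are of raw counts. The edgeR test ran first on simulated counts with known log2 fold changes of 1 or 2 in either direction. Alox5ko_NS against WT_NS and the averaged genotype comparison were not simulated, nor was DESeq2. Replicate libraries differed by more than counting error (chi-square per gene of 5.24 to 30.9). The genes with full values were the called members or the 6 with the smallest p in each comparison, and Hspa5, Xbp1, Atf4 and Ddit3 throughout; of further lists, the called genes or the 2 with the smallest p are named, here in the averaged TAC comparison and in part in the difference of the responses. The members, lists and rule were chosen with earlier results of these data known. Positions are from GENCODE M21 (GRCm38, which is mm10); 26 of the 34 genes have the same span in the deposited tables, and 11 share exon bases with another gene. Promoters are RefSeq's (GRCm38.p6), with 29 of 34 genes matched; Hyou1, Manf, Atf6, Ppp1r15b and Derl1 had no entry. Alternatives were DESeq2 1.42.0, its size factors, library totals without factors, no filter, only the groups compared, the replicate number as a block, and leaving out each library.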

Additional observations from a re-analysis of the deposited data

Results flagged for a closer look

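For 5 genes the 3 TAC libraries lay above the 3 NS libraries in Alox5ko and below them in WT. The ranges of these unpaired groups were thus separate in opposite directions in the genotypes. The difference between the responses, by edgeR's interaction test, was 0.42 for Hspa5, 0.48 for Hsp90b1, 0.38 for Calr, 0.60 for Creld2 and 0.49 for Syvn1 on the log2 scale, with adjusted p-values of 0.543 to 0.636, so none passed over all genes. Among all 15542 genes, 70 (0.450%) showed opposite directions without overlap, 35 each way. The separation was narrow for Hspa5 in Alox5ko (lowest TAC library 495 CPM, highest NS library 494.3 CPM), for Calr in WT (665.8 and 669 CPM) and for Syvn1 in WT (9.06 and 9.07 CPM). Creld2 in Alox5ko had 22.2 CPM in its lowest TAC library and 21.8 CPM in its highest NS library.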

How the results depend on the processing

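With no filter on low counts (28070 genes) more genes were called: of the 33, 4 in WT_TAC against WT_NS, 4 in Alox5ko_TAC against Alox5ko_NS, 4 in Alox5ko_TAC against WT_TAC, 1 in Alox5ko against WT averaged over treatments and 5 in the difference of the responses, against 0 in each with the filter; of all genes, 538, 756, 252, 348 and 83 in the same order, 116 in Alox5ko_NS against WT_NS and 1331 in the averaged TAC comparison, against 119, 209, 17, 24, 0, 6 and 792. In that fit the median prior degrees of freedom were infinite, against 11.3, so the spread of most genes was pooled. Library totals gave 1 of the 33 called in Alox5ko_TAC against Alox5ko_NS. DESeq2's size factors, the replicate block and DESeq2 each gave 1 of the 33 in the averaged TAC comparison, against 2, as Eif2ak3 was lost (adjusted p = 0.0514 with the block). DESeq2 gave 2 of the 33 in Alox5ko_TAC against Alox5ko_NS, and over all genes 285 in WT_TAC against WT_NS, 407 in Alox5ko_TAC against Alox5ko_NS, 59 in Alox5ko_TAC against WT_TAC, 24 in Alox5ko_NS against WT_NS, 99 in the averaged genotype comparison and 1 in the difference. Fits of only the groups compared gave 1 of the 33 and 215 genes in WT_TAC against WT_NS, 39 genes in Alox5ko_TAC against WT_TAC and 18 in Alox5ko_NS against WT_NS. The cause of the other shifts was not tested.

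Leaving out each library in turn gave 0 to 0 of the 33 genes in WT_TAC against WT_NS, Alox5ko_TAC against WT_TAC, Alox5ko_NS against WT_NS, the averaged genotype comparison and the difference, 0 to 1 in Alox5ko_TAC against Alox5ko_NS (1 without Alox5ko_TAC 2, Pdia4, and without Alox5ko_NS 3, Atf4) and 1 to 3 in the averaged TAC comparison (3 without Alox5ko_TAC 1, with Chac1 added). Over all genes the ranges were 17 to 95, 10 to 27, 2 to 7, 15 to 44, 0 to 1, 60 to 379 and 407 to 990 in that order. The lowest count in WT_TAC against WT_NS came without WT_NS 1, that in Alox5ko_TAC against Alox5ko_NS without Alox5ko_TAC 1 and that in the averaged TAC comparison without WT_NS 3. The highest of Alox5ko_TAC against Alox5ko_NS and of the averaged TAC comparison came without Alox5ko_TAC 2. Of the 46 fold changes chosen by the naming rule, none changed sign under any of these settings. Library totals turned the sign of other, small values, for up to 8 of the 33 genes (in Alox5ko_NS against WT_NS). Same-numbered libraries showed no strong shared deviation (r from -0.135 to 0.119 over 18 pairs, 2 of them over 0.1, and 1 of 12 libraries correlated best with its own number in all groups). Such values cannot exclude a weaker pairing of the samples by number. The block moved no other call of a named gene. With 3 libraries a group, the counts of Chac1, Trib3, Asns, Sec61b and Sdf2l1 (6 to 108 per library) limit what can be detected.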
